A study of Mus musculus with 47 samples.

Results

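The genes of the proteasome and of the enzymes that attach and remove ubiquitin were examined in mouse liver. A gene was a member if its platform symbol began with Psma to Psmg, Uba or Usp and a number, or with Ube2, and if a probeset (the group of probes that reads a transcript) carried that symbol alone. The rule found 53 genes of the 6889 genes with a symbol of their own, read by 57 probesets of the 9815 transcripts tested. They were 23 proteasome genes and 30 ubiquitin enzyme genes, and the brightest probeset stood for a gene with several. The study asked whether long use of sunscreens with metal oxide nanoparticles or organic filters changes internal organs, with and without ultraviolet radiation (UVR). Liver RNA of 47 female albino hairless, immune-competent SKH:QS mice was read on Affymetrix Mouse Gene 1.0 ST arrays, 1 array for each mouse, in 8 groups of 6 mice, except ZnO + UVR with 5. Control mice got no sunscreen, and their handling was a sham of the treatment. The ZnO sunscreen held ZnO as its active ingredient, the TiO2 sunscreen held TiO2 with octylmethoxycinnamate and butyl methoxydibenzoylmethane, and the organic sunscreen held these organic filters with 4-methylbenzylidene camphor and octocrylene and no metal oxide. Each was used without UVR (Control-UVR, ZnO-UVR, TiO2-UVR, Organic-UVR) or with 29 kJ/m2 of UVR at each treatment (Control + UVR, ZnO + UVR, TiO2 + UVR, Organic + UVR), in 30 weekly treatments over 36 weeks. All mice entered at 8 weeks of age, and livers were taken about a day after the last treatment. The paper reports mice that did not reach the endpoint, most of them in ZnO + UVR and Control + UVR. It also reports skin lesions in Control + UVR mice at the endpoint. The part of these events in the liver values was not tested. The paper describes a cage for each group, so that cage and treatment cannot be told apart, whereas the labels give individual housing.

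The proteasome is the barrel-shaped protease that degrades most proteins marked with ubiquitin. Its core particle is made of alpha subunits (Psma genes), which form the gate, and beta subunits (Psmb genes), some of which cut the protein. The regulatory particle caps the core: its base holds ATPases (Psmc genes) that unfold and feed the substrate, and large scaffold subunits, and its lid (other Psmd genes) removes ubiquitin before entry. Other activators (Psme genes) open the core without ubiquitin. Ubiquitin is passed from activating enzymes (Uba genes) to conjugating enzymes (Ube2 genes) and, with ligases, to the target, and deubiquitinases (many of them Usp genes) take it off again. In liver the system turns over regulatory, damaged and misfolded proteins, and the transcription factor Nfe2l1 is known to raise proteasome genes together when proteasome activity is short.

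The members covered the particle in part. In the core, Psma2, Psma3, Psma5 and Psma6 were alpha subunits, Psmb5 and Psmb6 catalytic beta subunits with chymotrypsin-like and caspase-like activity, and Psmb3 a beta subunit that does not cut. In the regulatory particle, Psmc1, Psmc5 and Psmc6 were ATPases, Psmd1 and Psmd2 scaffolds of the base, and Psmd3, Psmd6, Psmd11 and Psmd12 lid subunits. These 16 genes are called core and regulatory subunits here. Psme1 and Psme2 form the interferon-inducible activator, Psme3 is its nuclear relative, and Psme4 another nuclear activator. The last 3 members with a proteasome symbol stood apart: Psmg4 is an assembly chaperone, Psmb11 is the catalytic subunit of the thymus, and Psmc3ip, although it matched the rule, is a recombination factor and no proteasome subunit. By symbol, the ubiquitin enzymes were 17 conjugating enzymes (Ube2 genes) and 13 deubiquitinases (Usp genes), with 0 members of a Uba symbol. A gene with a Ube2 symbol need not conjugate ubiquitin itself. The interferon-inducible catalytic subunits Psmb8, Psmb9 and Psmb10, the catalytic subunit Psmb7, and Usp2 and Ube2c were not analysed here. For 6 members (Psma5, Psmb3, Ube2l3, Ube2q2, Ube2v1 and Ube2v2) the probesets next in number belonged to another chromosome than the gene. Such a probeset may read a copy of the gene elsewhere, so these 6 are uncertain.

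The promoters of 3 subunits that were called lower under organic filters whichever array was left out (Psmd11, Psmd1 and Psmc5) are printed with those of the catalytic subunits Psmb5 and Psmb6, whose differences did not pass the test, for comparison. Each is the 250 bases before the transcript start, from RefSeq in GRCm38.p6, in the direction of the gene: Psmd11 at chr11:80428365-80428614 (+ strand), Psmd1 at chr1:86064369-86064618 (+ strand), Psmc5 at chr11:106255935-106256184 (+ strand), Psmb5 at chr14:54617996-54618245 (- strand) and Psmb6 at chr11:70525107-70525356 (+ strand). Capitals mark the core of the antioxidant response element, through which Nfe2l1 is known to act, searched on both strands as TGAC, any 3 bases, then GC.
Psmd11: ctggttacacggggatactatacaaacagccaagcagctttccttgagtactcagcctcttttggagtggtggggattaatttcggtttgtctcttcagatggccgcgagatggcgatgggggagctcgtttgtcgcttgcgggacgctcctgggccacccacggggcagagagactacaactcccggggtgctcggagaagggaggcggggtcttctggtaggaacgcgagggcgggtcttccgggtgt
Psmd1: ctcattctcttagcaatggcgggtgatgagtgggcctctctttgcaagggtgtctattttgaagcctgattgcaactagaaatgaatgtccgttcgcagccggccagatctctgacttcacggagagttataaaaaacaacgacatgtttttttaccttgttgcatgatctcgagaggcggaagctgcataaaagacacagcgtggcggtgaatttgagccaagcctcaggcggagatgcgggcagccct
Psmc5: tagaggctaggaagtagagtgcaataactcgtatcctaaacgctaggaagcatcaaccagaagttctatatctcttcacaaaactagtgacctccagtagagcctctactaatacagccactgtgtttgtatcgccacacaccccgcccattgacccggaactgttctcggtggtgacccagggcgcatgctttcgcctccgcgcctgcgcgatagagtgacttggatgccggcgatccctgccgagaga
Psmb5: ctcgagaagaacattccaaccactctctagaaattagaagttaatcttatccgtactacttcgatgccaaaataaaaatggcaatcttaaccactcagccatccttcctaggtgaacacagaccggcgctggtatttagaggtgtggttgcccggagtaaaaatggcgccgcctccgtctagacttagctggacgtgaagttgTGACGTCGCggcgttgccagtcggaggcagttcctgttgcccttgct
Psmb6: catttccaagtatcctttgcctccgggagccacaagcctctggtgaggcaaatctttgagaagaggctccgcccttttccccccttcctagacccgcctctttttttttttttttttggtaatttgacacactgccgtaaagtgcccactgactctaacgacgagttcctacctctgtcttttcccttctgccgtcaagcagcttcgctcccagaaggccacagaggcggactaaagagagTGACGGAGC
The motif began 47 bases before the start in Psmb5 and 9 bases before it in Psmb6, and these letters were not in the windows of Psmd11, Psmd1 and Psmc5. In windows that also held the 50 bases after the start, 5 of 22 proteasome genes with a promoter in the table had the motif (22.7%; Psmb5, Psmb6, Psmc6, Psmd12 and Psme4), as did 9 of 23 ubiquitin enzyme genes (39.1%), against 14.0% of all 27025 genes. A match is a description and not a binding site.

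Before any comparison, 1 array stood apart. When each array was regressed on the average array, the slope was 0.772 for Organic-UVR replicate 1 and from 0.895 to 1.07 for the others. In that mouse the mean of the 16 core and regulatory subunits lay at -1.43 on the log2 scale from the Control-UVR mean, and the other 5 Organic-UVR mice lay between -0.50 and 0.04. Calls that rest on this array are given with and without it. Bright transcripts also lay lower in several groups: in Organic-UVR, 66.2% of the brighter part of all transcripts (mean level at or above the median of all) had a difference below 0 from Control-UVR, against 44.6% of all transcripts. All 16 core and regulatory subunits and 25 of 30 ubiquitin enzymes belonged to the brighter part. The mean log2 level of the hepatocyte genes measured, Apob and Cps1 (2 of 12 listed), ranged from 12.37 to 12.57 in Control-UVR and from 12.16 to 12.56 in Organic-UVR.

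The 4 groups whose sunscreen held organic filters (TiO2 and organic, with and without UVR) were compared with the 4 groups without. Of the 23 proteasome genes 6 fell: the lid subunits Psmd11 and Psmd3, the base scaffolds Psmd1 and Psmd2, the ATPase Psmc5 and the beta subunit Psmb3. Of the 30 ubiquitin enzymes, Ube2v1 fell, a variant without catalytic activity of its own that helps Ube2n build ubiquitin chains. The threshold for a call was 0.1, the false discovery rate of the study, on limma p-values adjusted by Benjamini-Hochberg over all transcripts. In this comparison 4.94% of all transcripts were called and 3.4% were called lower. Of the 4908 transcripts of the brighter part, 324 were called lower. The differences were modest. Psmd11 was 20.4% lower (log2 difference -0.33 ± 0.14, 95% interval, adjusted p 0.00700), Psmc5 15.6% lower (-0.25 ± 0.14, adjusted p 0.0401), Psmd1 12.9% lower (-0.20 ± 0.12, adjusted p 0.0583) and Psmd3 17.2% lower (-0.27 ± 0.17, adjusted p 0.0723). Psmd2 was 14.3% lower (-0.22 ± 0.14, adjusted p 0.0770), Ube2v1 18.1% lower (-0.29 ± 0.19, adjusted p 0.0885) and Psmb3 15.5% lower (-0.24 ± 0.16, adjusted p 0.0970). No member was called higher. All 16 core and regulatory subunits had a difference below 0, from -0.33 to -0.09, and the median was -0.20. Of all transcripts 42.4% lay below 0, and of the brighter part, to which these subunits belong, 64.7%. The median over all 23 proteasome genes was -0.16 and over the ubiquitin enzymes -0.07, beside 0.02 for all transcripts and -0.05 for the brighter part. Without Organic-UVR replicate 1, Psmd11, Psmc5 and Psmd1 were called, with 3.41% of all transcripts. With no term for the replicate number, Psmd11 (adjusted p 0.0196) and Psmd3 (adjusted p 0.0959) were called, with 2.21% of all transcripts, and the other 5 calls were lost: Ube2v1 (adjusted p 0.121), Psmd2 (adjusted p 0.130), Psmd1 (adjusted p 0.149), Psmc5 (adjusted p 0.165) and Psmb3 (adjusted p 0.269). With the array slope as a covariate or after quantile normalization Psmd11 was the member called (2.2% and 3.07% of all transcripts). The second Psmb3 probeset, which lies among genes of its own chromosome, had a log2 difference of -0.30 (adjusted p 0.194).

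**Figure D1:**
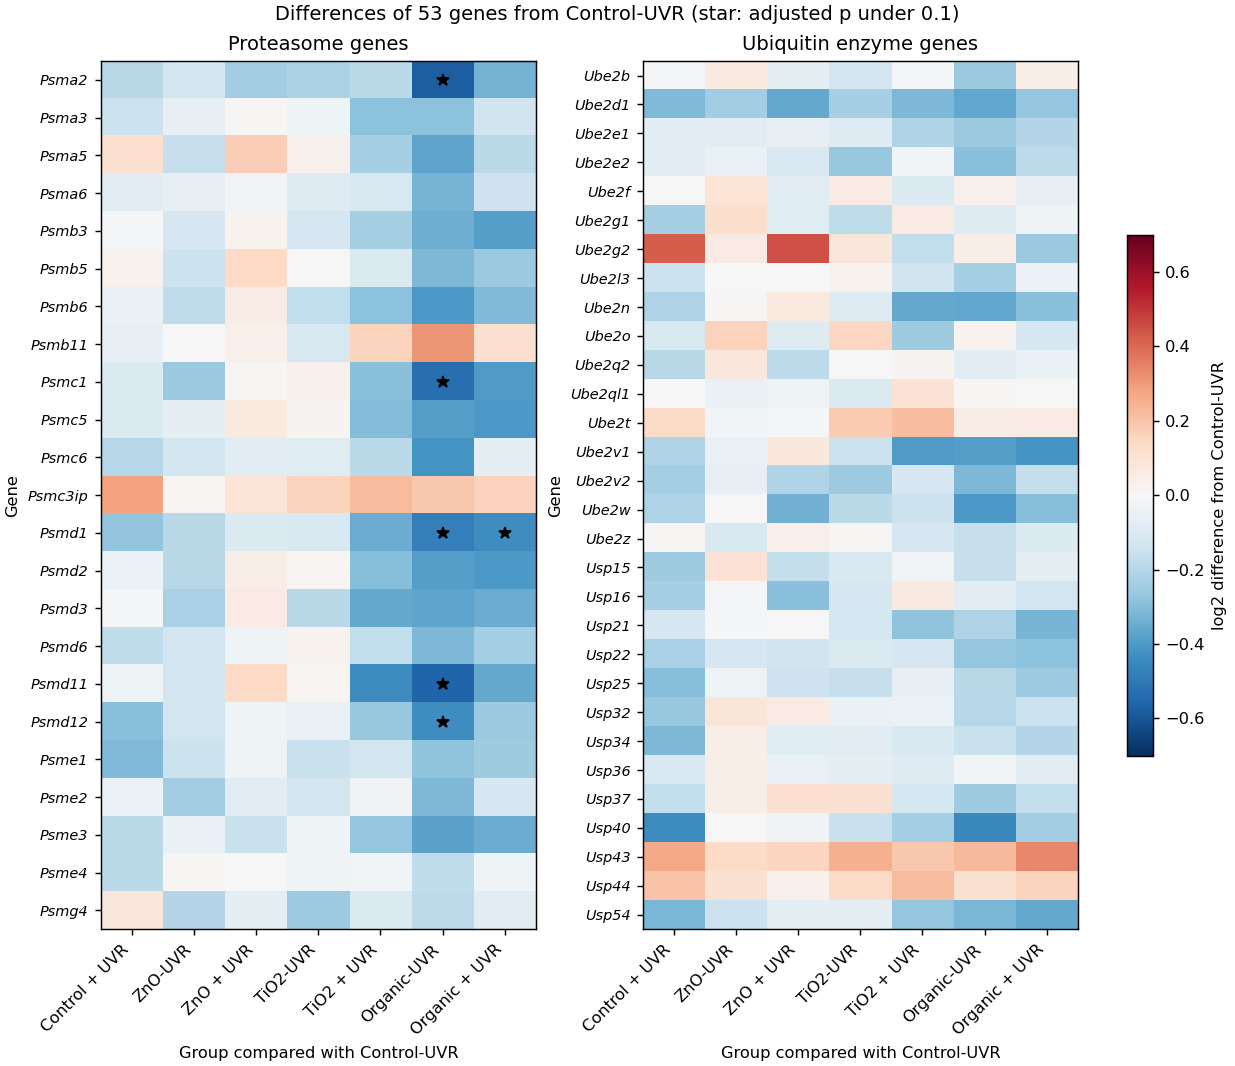
Log2 differences of 23 proteasome genes and 30 ubiquitin enzyme genes from Control-UVR in the 7 other groups. Blue is lower and red higher, and a star marks an adjusted p under 0.1. The stars lie in Organic-UVR (5 genes) and Organic + UVR (Psmd1), and 21 of 23 proteasome genes lie below 0 in ZnO-UVR, TiO2 + UVR, Organic-UVR and Organic + UVR and 19 in Control + UVR. Of the brighter part of all transcripts, 53.7%, 59.3%, 66.2%, 68.4% and 66.0% lie below 0 in these groups, in that order.

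Psmd11 is a lid subunit that helps hold lid, base and core together. Its lowest, median and highest log2 levels were 9.23, 9.41 and 9.54 in Control-UVR, 9.10, 9.38 and 9.56 in Control + UVR, 8.91, 9.25 and 9.68 in ZnO-UVR and 9.10, 9.41 and 9.64 in TiO2-UVR. The 5 mice of ZnO + UVR had 9.63, 9.48, 9.43, 9.52 and 9.51. These groups overlapped. The levels were 8.71, 8.97 and 9.20 in TiO2 + UVR, 7.83, 8.95 and 9.25 in Organic-UVR and 8.79, 9.05 and 9.22 in Organic + UVR. Every mouse of TiO2 + UVR and Organic + UVR lay below every Control-UVR mouse, which also held for 0.56% and 1.14% of all transcripts. The other member with such a gap was Ube2n in TiO2 + UVR (log2 difference -0.36, adjusted p 0.594 in limma). In Organic-UVR the highest mouse reached into the Control-UVR range. TiO2-UVR, which also received organic filters, was level with Control-UVR (log2 difference 0.01 ± 0.28). The lower mean of the groups with organic filters thus came from 3 of the 4 groups.

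Psmd1 is a scaffold of the base. Its lowest, median and highest log2 levels were 9.41, 9.59 and 9.70 in Control-UVR, 8.96, 9.21 and 9.60 in Control + UVR, 9.19, 9.40 and 9.46 in ZnO-UVR and 9.22, 9.46 and 9.63 in TiO2-UVR. They were 8.81, 9.26 and 9.60 in TiO2 + UVR, 8.58, 9.10 and 9.54 in Organic-UVR and 8.62, 9.19 and 9.47 in Organic + UVR. The 5 mice of ZnO + UVR had 9.54, 9.52, 9.63, 9.39 and 9.30. All groups overlapped Control-UVR, whose mean was the highest of the 8 groups, and Control + UVR was also below it (log2 difference -0.28 ± 0.23, adjusted p 0.308 in limma).

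Psmc5 is an ATPase of the base. Its lowest, median and highest log2 levels were 9.38, 9.54 and 9.96 in Control-UVR and 9.35, 9.58 and 9.96 in TiO2-UVR. They were 9.12, 9.22 and 9.72 in TiO2 + UVR, 8.54, 9.25 and 9.75 in Organic-UVR and 8.88, 9.12 and 9.68 in Organic + UVR. The medians of these last 3 groups lay below the Control-UVR range and their highest mice within it. The medians of Control + UVR (9.59), ZnO-UVR (9.60) and ZnO + UVR (9.70) lay within that range.

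**Figure D2:**
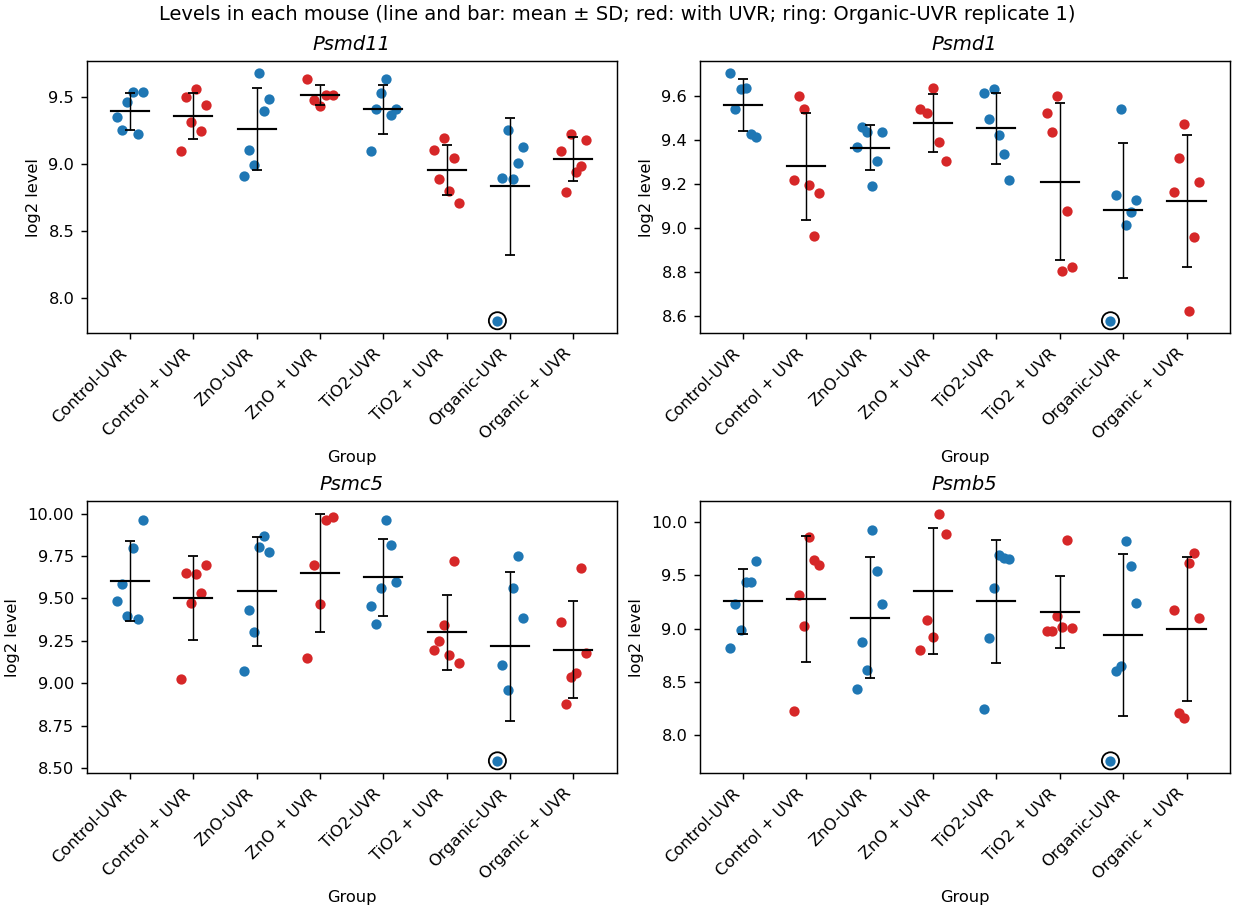
Log2 levels of Psmd11, Psmd1, Psmc5 and Psmb5 in each mouse (vertical axis) by group (horizontal axis), blue without and red with UVR, with the mean and SD in black and a ring around Organic-UVR replicate 1. Psmd11 in TiO2 + UVR and Organic + UVR lies wholly below Control-UVR, whereas the catalytic subunit Psmb5 overlaps in every group.

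Organic-UVR against Control-UVR had larger falls. Psmd1 was 28.2% lower (log2 difference -0.48 ± 0.23, adjusted p 0.0271), Psmd11 32.2% lower (-0.56 ± 0.28, adjusted p 0.0337) and the ATPase Psmc1 30.6% lower (-0.53 ± 0.29, adjusted p 0.0464). The alpha subunit Psma2 was 33.1% lower (-0.58 ± 0.37, adjusted p 0.0964) and the lid subunit Psmd12 26.0% lower (-0.44 ± 0.28, adjusted p 0.0968). These 5 of 23 proteasome genes and 0 of 30 ubiquitin enzymes were called by limma, against 3.27% of all transcripts called and 2.53% called lower. Of the 4908 transcripts of the brighter part, 239 were called lower. At an unadjusted p under 0.05, 16 proteasome genes and 6 ubiquitin enzymes lay lower, against 10.9% of all transcripts and 20.9% of the brighter part. All 16 core and regulatory subunits lay below 0, with a median of -0.39, as did 44.6% of all transcripts and 66.2% of the brighter part. The median was -0.37 for the proteasome genes and -0.20 for the ubiquitin enzymes, beside 0.03 for all transcripts and -0.12 for the brighter part. With the array slope as a covariate the proteasome median was -0.16 and after quantile normalization -0.18. All 5 calls were lost without Organic-UVR replicate 1. With no term for the replicate number Psmd11 was called (adjusted p 0.0749), with 0.937% of all transcripts, whereas Psmd1 (adjusted p 0.102), Psmd12 (adjusted p 0.180), Psmc1 (adjusted p 0.184) and Psma2 (adjusted p 0.226) were not. The lowest, median and highest levels of Psmc1 were 6.98, 8.15 and 8.60, against 8.11, 8.61 and 8.80 in Control-UVR. Those of Psma2 were 6.96, 8.71 and 9.09, against 8.77, 8.96 and 9.34, and those of Psmd12 were 7.78, 9.21 and 9.35, against 9.18, 9.39 and 9.53. Without that array 0 members were called, against 0.672% of all transcripts, and the proteasome median was -0.19. Then 20 of 23 proteasome genes lay below 0 and 7 had an unadjusted p under 0.05, with 4.96% of all transcripts lower at that level. Psmd1 then had -0.36 (adjusted p 0.154) and Psmd11 -0.38 (adjusted p 0.201). In bulk RNA, fewer cells of a type and less RNA in each cell cannot be told apart.

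**Figure D3:**
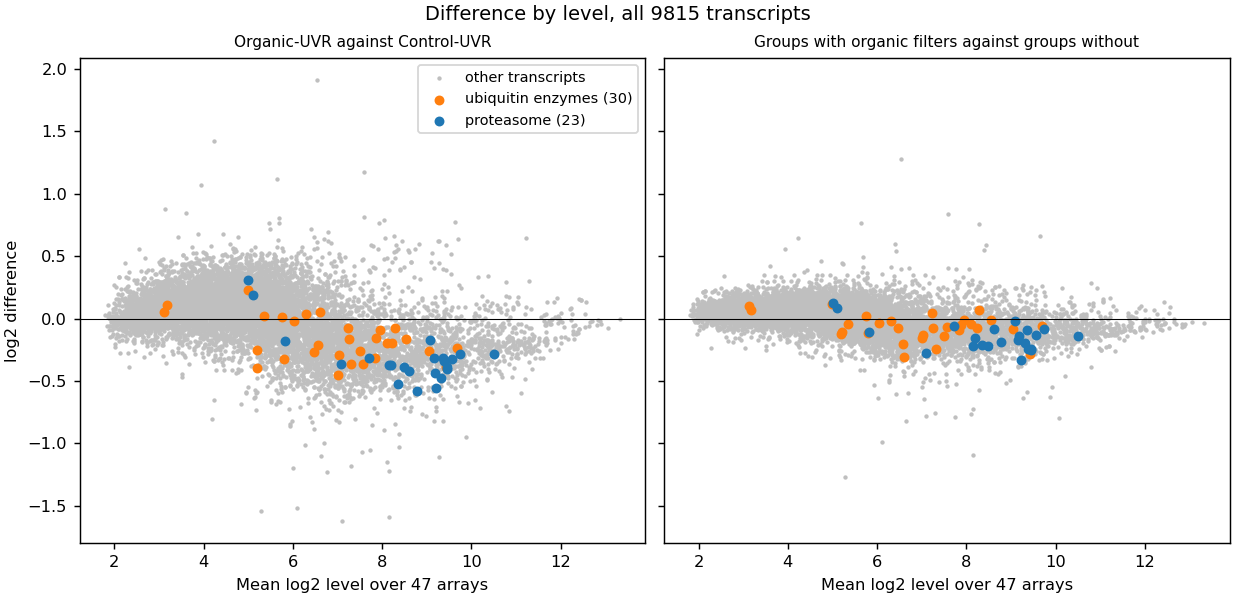
Log2 difference (vertical axis) against the mean log2 level of each transcript (horizontal axis) for Organic-UVR against Control-UVR and for groups with against groups without organic filters, with proteasome genes in blue, ubiquitin enzymes in orange and the other transcripts in grey. Brighter transcripts lie lower on average, and the proteasome genes have a median of -0.37 in Organic-UVR and -0.16 under organic filters.

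In Organic + UVR against Control-UVR, Psmd1 was the member that fell (26.0% lower, log2 difference -0.43 ± 0.23, adjusted p 0.0698), and 1.65% of all transcripts were called and 1.4% called lower. Of the 4908 transcripts of the brighter part, 128 were called lower. Psmc5 (-0.40, adjusted p 0.124), Psmd2 (-0.40, adjusted p 0.138) and Psmd11 (-0.36, adjusted p 0.183) did not pass in the limma fit. All 16 core and regulatory subunits lay below 0, with a median of -0.32, as did 45% of all transcripts and 68.4% of the brighter part. The count depended on single arrays: 6 members and 5.88% of all transcripts were called without Organic-UVR replicate 1, which lies in neither group but adds to the shared spread, and 10 members and 12.1% of all transcripts without Organic + UVR replicate 1, while leaving out any of 5 other mice (Organic + UVR replicates 2 and 4, and replicates 1, 4 and 6 of Control-UVR) gave 0. With no term for the replicate number 0 members were called (Psmd1 adjusted p 0.175), with 0.336% of all transcripts. In TiO2 + UVR against Control-UVR, 0 members were called by limma and 0.693% of all transcripts were. At an unadjusted p under 0.05, 8 proteasome genes and 3 ubiquitin enzymes lay lower, against 5.45% of all transcripts and 10.0% of the brighter part. Psmd11 had the smallest p (log2 difference -0.44 ± 0.28, adjusted p 0.229), followed by Psmd1 (-0.35 ± 0.23, adjusted p 0.254). Both were called without Organic-UVR replicate 1 (adjusted p 0.0483 and adjusted p 0.0953), with 1.18% of all transcripts. The ubiquitin enzymes with the smallest p were Ube2d1 (-0.32, adjusted p 0.426), a conjugating enzyme that works with many ligases, and Usp54 (-0.27, adjusted p 0.453). All 16 core and regulatory subunits lay below 0 here too, between -0.44 and -0.10, as did 42% of all transcripts and 59.3% of the brighter part. These comparisons share the Control-UVR mice, so their likeness is not independent.

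With all arrays and the fit used here, the catalytic subunits and the activators were called in 0 of the 12 comparisons, and some were called under other settings, such as Psme3 in Organic-UVR with dim transcripts left out and Psmb5 and Psmb6 in Organic + UVR with array weights. The lowest, median and highest log2 levels of Psmb5 were 8.82, 9.33 and 9.63 in Control-UVR, 7.76, 8.94 and 9.82 in Organic-UVR and 8.16, 9.14 and 9.71 in Organic + UVR, with differences of -0.31 ± 0.37 and -0.26 ± 0.37. Those of Psmb6 were 9.36, 9.66 and 9.88, 7.47, 9.33 and 10.34 and 8.28, 9.46 and 10.07, with differences of -0.40 ± 0.47 and -0.31 ± 0.47. Both varied widely within groups, and the intervals include falls as large as those of Psmd11. Psme1 had its lowest group mean in Control + UVR (9.61 ± 0.22, SD, n = 6, against 9.91 ± 0.20 in Control-UVR), a difference of -0.31 ± 0.27 (adjusted p 0.319 by limma). Psme2 was lowest in Organic-UVR (-0.31 ± 0.31, adjusted p 0.248). Psme3 was -0.37 ± 0.24 in Organic-UVR (adjusted p 0.101), just outside the threshold, and -0.35 ± 0.24 in Organic + UVR (adjusted p 0.148). Psme4 had -0.03 ± 0.31 in Organic + UVR, -0.18 ± 0.31 in Organic-UVR and -0.19 ± 0.31 in Control + UVR. Psmb11 and Psmc3ip, which are not part of the liver particle and were dim, had differences of 0.12 and 0.09 under organic filters.

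Among the ubiquitin enzymes, Ube2v1 was the only gene called by limma in the 12 comparisons with all arrays and the fit used here, and its probeset is among the uncertain ones. Its lowest, median and highest log2 levels were 9.52, 9.62 and 9.80 in Control-UVR, 8.61, 9.31 and 9.68 in TiO2 + UVR, 8.33, 9.39 and 9.57 in Organic-UVR and 8.57, 9.32 and 9.73 in Organic + UVR, which all overlap. Its call was lost without Organic-UVR replicate 1 (adjusted p 0.135). Its catalytic partner Ube2n had differences of -0.36, -0.37 and -0.29 in these 3 groups. Of 17 conjugating enzymes 14 lay below 0 under organic filters with a median of -0.08, and of 13 deubiquitinases 10 did with a median of -0.05. In this comparison 42.4% of all transcripts and 64.7% of the brighter part lay below 0. Ube2g2, an enzyme of degradation at the endoplasmic reticulum, had differences of 0.42 ± 0.46 in Control + UVR, 0.45 ± 0.49 in ZnO + UVR and -0.26 ± 0.46 in Organic + UVR. The dim Usp43 had differences above 0 in all 7 groups, from 0.13 to 0.34. The probesets of Usp54 differed in sign in all 7 groups, as in Organic + UVR (-0.36 and 0.12), Control + UVR (-0.32 and 0.16) and TiO2 + UVR (-0.27 and 0.08). They also did in the interaction of the ZnO sunscreen with UVR (0.40 and -0.17). The values given for Usp54 are those of the brightest probeset, and the other does not bear them out.

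For UVR itself no member passed the test. In Control + UVR against Control-UVR 0 members were called by limma, with 0.0509% of all transcripts called. At an unadjusted p under 0.05, 3 proteasome genes (13.0%) and 3 ubiquitin enzymes (10%) lay lower. So did 7.27% of all transcripts and 13.3% of the brighter part. The deubiquitinase Usp40 had the smallest p: its lowest, median and highest log2 levels were 6.46, 6.64 and 7.31 against 7.02, 7.20 and 7.37 in Control-UVR, a difference of -0.44 ± 0.35 (adjusted p 0.293). Without Organic-UVR replicate 1, which enters this comparison only through the shared spread, Usp40 was called (adjusted p 0.0894), with 0.958% of all transcripts. Usp54 (-0.32), Psmd1 (-0.28) and Psmc3ip (0.28) followed. Over the 4 UVR groups against the 4 without, 0 members and 0% of all transcripts were called by limma, and the proteasome median was -0.0036. At an unadjusted p under 0.05 there were Psme3 (-0.13 ± 0.12, adjusted p 0.727) and Ube2o (-0.22 ± 0.14, adjusted p 0.632), with 6.8% of all transcripts, and the next were Ube2f (-0.11) and Psmc3ip (0.10). Without Organic-UVR replicate 1, 0 members were called, and 3 proteasome genes and 7 ubiquitin enzymes lay lower at an unadjusted p under 0.05 (1 and 1 with it), against 7.92% of all transcripts.

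In both ZnO groups and in TiO2-UVR, 0 members and 0% of all transcripts were called by limma. At an unadjusted p under 0.05 there was 1 member, Ube2d1 in ZnO + UVR (-0.36 ± 0.30, adjusted p 1.000), and 0 in ZnO-UVR and TiO2-UVR, with 2.81%, 1.52% and 3.86% of all transcripts at that level in ZnO + UVR, ZnO-UVR and TiO2-UVR. In ZnO-UVR all 16 core and regulatory subunits lay below 0 (median -0.13), as did 50.4% of all transcripts and 53.7% of the brighter part. In ZnO + UVR the median of the subunits was 0.02. The smallest p in ZnO-UVR were those of Psmc1 (-0.26 ± 0.29), Psmd1 (-0.19 ± 0.23), Ube2d1 (-0.25 ± 0.28) and Ube2o (0.16 ± 0.27). Beside Ube2d1, they were those of Psma2 (-0.24 ± 0.39), Psme3 (-0.16 ± 0.26) and Ube2g2 in ZnO + UVR. In TiO2-UVR they were those of Psmg4 (-0.25 ± 0.28), Psmc3ip (0.15 ± 0.23), Usp43 (0.25 ± 0.25) and Ube2e2 (-0.27 ± 0.29). The interval for Psmd11 in ZnO-UVR (-0.13 ± 0.28) includes a fall of the size found under organic filters.

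Whether UVR acted differently under a sunscreen than without was tested as an interaction, and 0 members were called for the ZnO, TiO2 or organic sunscreen by limma, with 0%, 0.173% and 0% of all transcripts called. At an unadjusted p under 0.05 there were 3, 3 and 4 members, against 3.79%, 8.49% and 7.43% of all transcripts. For the organic sunscreen the smallest p were those of Usp40 (0.65 ± 0.49, adjusted p 0.626), Psmd12 (0.47 ± 0.40, adjusted p 0.654), Ube2g2 (-0.73 ± 0.65, adjusted p 0.654) and Psmd1 (0.32 ± 0.32, adjusted p 0.676). For the TiO2 sunscreen they were those of Ube2g1 (0.47 ± 0.42, adjusted p 0.529), Psmd11 (-0.42 ± 0.40, adjusted p 0.559), Ube2g2 (-0.68 ± 0.65, adjusted p 0.569) and Psme1 (0.33 ± 0.37, adjusted p 0.635). For the ZnO sunscreen they were those of Psmd1 (0.37 ± 0.33), Psme1 (0.43 ± 0.39), Usp54 (0.40 ± 0.37) and Usp40 (0.42 ± 0.50, adjusted p 0.985). The organic interaction includes Organic-UVR replicate 1, the lowest mouse of its group for Usp40 and Psmd12. Without that array 0 members and 0% of all transcripts were called in it. There 9 of 23 proteasome genes and 10 of 30 ubiquitin enzymes then lay below 0, against 3 and 7 with the array. With the array, 54.3% of all transcripts lay below 0. The 4 values named for the organic sunscreen are not given without that array.

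**Figure D4:**
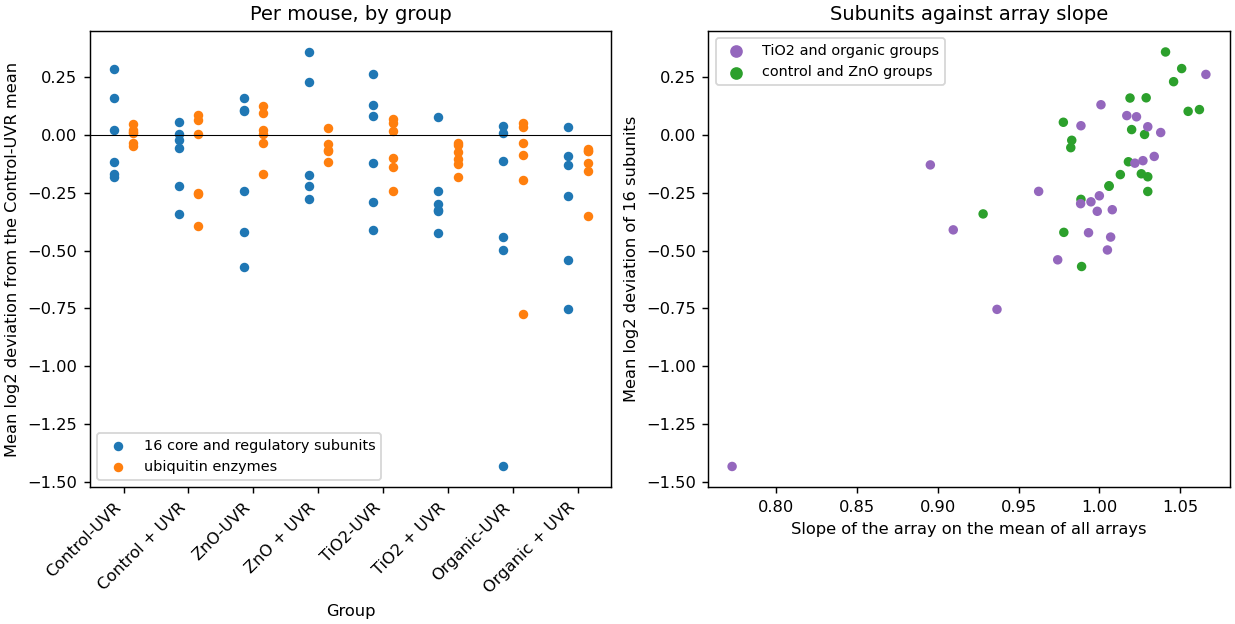
Mean log2 deviation from the Control-UVR mean in each mouse (vertical axis) by group (horizontal axis), and the deviation of the 16 core and regulatory subunits against the slope of the array. The lowest point is Organic-UVR replicate 1, at -1.43 and a slope of 0.772.

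Mouse by mouse, the mean deviation of the 16 core and regulatory subunits from the Control-UVR mean was -0.41 ± 0.55 (SD, n = 6) in Organic-UVR (-0.20 ± 0.25 (n = 5) without replicate 1), -0.29 ± 0.30 (n = 6) in Organic + UVR and -0.26 ± 0.17 (n = 6) in TiO2 + UVR. It was -0.10 ± 0.15 (n = 6) in Control + UVR, -0.14 ± 0.31 (n = 6) in ZnO-UVR, -0.06 ± 0.26 (n = 6) in TiO2-UVR and -0.02 ± 0.29 (n = 5) in ZnO + UVR, and the SD in Control-UVR was 0.19. In TiO2 + UVR 5 of 6 mice lay between -0.42 and -0.24 and the other at 0.08. All groups overlapped Control-UVR. Within groups the mean moved with the replicate number: over the 8 groups, replicates 1, 2 and 3 lay on average -0.29, -0.16 and -0.14 from their group mean, and replicates 4, 5 and 6 lay 0.21, 0.25 and 0.15 from it. Replicates 1 to 3 had the lower mean in 8 of 8 groups, a split made after the values were seen, as in ZnO-UVR (-0.41 against 0.12) and ZnO + UVR (-0.22 against 0.29). For the ubiquitin enzymes they had the lower mean in 3 of 8 groups.

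The subunits also varied together from mouse to mouse. After each group's mean was removed, the median Pearson correlation over the 120 pairs of the 16 subunits was 0.67 across 47 arrays, beside 0.0056 over all pairs of transcripts and 0.08 over pairs of the brighter part, and 0.15 and 0.31 among conjugating enzymes and deubiquitinases. These are descriptions, since all genes of an array share its slope and RNA, and the subunits moved with the replicate number. With the replicate number removed too, a choice made after seeing the data, the median was 0.56, beside 0.0023 over all pairs and 0.09 over the brighter part. Without Organic-UVR replicate 1, a choice of the same kind, it was 0.58. The closest pairs of all members were Psmb5 with Psmb6 (0.95) and Psmb3 with Psmb6 (0.94), all of the beta ring, followed by Psma2 with Psmc6 (0.92). Psmd1 stood apart in these deviations: its median correlation with the other 15 subunits was -0.16 (-0.48 without that array), and that of Psmd3 was 0.21, whereas the other 14 had medians between 0.57 and 0.79. With the replicate number removed too, Psmd1 had 0.39, Psmd3 0.30 and Psmc6 0.41, and the other 13 lay between 0.48 and 0.67. Psmd11 had 0.57 with all arrays and 0.30 without Organic-UVR replicate 1.

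**Figure D5:**
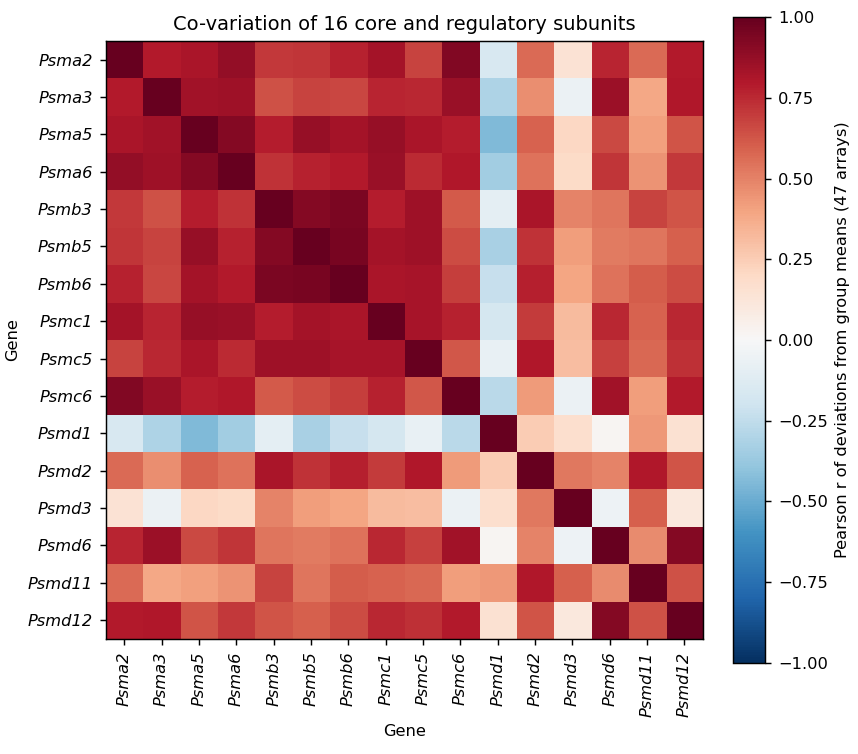
Pearson correlation between the mouse-to-mouse deviations of 16 core and regulatory subunits from their group means over 47 arrays, with the genes on both axes. Red cells are genes that varied together (Psmb5 with Psmb6, 0.95), and the pale or blue row is Psmd1, with a median of -0.16.

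The other genes of the pathway gave few calls. Of 5 measured genes of proteasome assembly, regulation and shuttling (23 listed), the shuttle factor Ubqln1 fell under organic filters (log2 difference -0.28, adjusted p 0.0157) and in Organic-UVR (-0.45, adjusted p 0.0608). The former call held when Organic-UVR replicate 1 was left out (adjusted p 0.0201) and the latter was lost (-0.34, adjusted p 0.303). The regulator Nfe2l1 had -0.11 under organic filters (adjusted p 0.483). Of 3 measured ubiquitin-like genes (8 listed), the modifier Sumo3 fell under organic filters (-0.44, adjusted p 3.82e-05), in TiO2 + UVR (-0.74, adjusted p 0.00177), in Organic-UVR (-0.65, adjusted p 0.00604) and in Organic + UVR (-0.57, adjusted p 0.0366). Its 4 calls held without Organic-UVR replicate 1 (-0.54, adjusted p 0.0314 in Organic-UVR). Of 11 measured ligases and adaptors (44 listed) and 6 measured deubiquitinases of other families (12 listed), 0 were called by limma in any of the 12 comparisons, with medians of -0.06 and -0.04 under organic filters. Of 3 listed ubiquitin genes 0 were measured in the part of the array tested here.

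Genes of other programmes moved in the same groups. All 4 clock genes given here, which earlier results of these data had put forward, were called under organic filters: Npas2, of the activating arm, fell (-1.27, adjusted p 8.51e-05), and Ciart (1.28), Per1 (0.41) and Tef (0.60) rose. All 4 were also called under organic filters without Organic-UVR replicate 1 (Npas2 -1.32, adjusted p 3.57e-05). Against Control-UVR, all 4 were called in TiO2 + UVR and Organic-UVR, Npas2 was the 1 called in Organic + UVR, and 0 were called in TiO2-UVR. The lowest, median and highest log2 levels of Npas2 were 3.86, 4.07 and 4.46 in TiO2 + UVR, 3.79, 4.06 and 4.63 in Organic-UVR and 3.79, 4.11 and 4.83 in Organic + UVR, against 4.12, 6.20 and 6.71 in Control-UVR and 4.63, 6.30 and 7.30 in TiO2-UVR. Of 5 measured interferon and antigen presentation genes (11 listed), 3 fell in Organic-UVR (Irf9 -0.56, Irgm1 -0.81 and Rsad2 -0.86), 2 in Organic + UVR (Irf9 and Irgm1) and 1 under organic filters (Irgm1 -0.32). When Organic-UVR replicate 1 was left out, the calls in Organic-UVR were lost for Irf9 (-0.43, adjusted p 0.300), Irgm1 (-0.57, adjusted p 0.222) and Rsad2 (-0.80, adjusted p 0.257), as was that of Irgm1 under organic filters (adjusted p 0.126). Those in Organic + UVR held (adjusted p 0.0419 and adjusted p 0.0252). The mean log2 level of the 5 ranged from 6.40 to 7.55 in Control-UVR, from 5.72 to 6.75 in Organic-UVR and from 6.08 to 6.55 in Organic + UVR. Among cell type markers the endothelial gene Pecam1 fell under organic filters (-0.28) and in Organic + UVR (-0.66). The other endothelial gene measured, Stab2, was not called, and the median of the 2 was -0.15 and -0.40. The bile duct gene Krt7 rose in Organic-UVR (0.57) and Organic + UVR (0.37), and Sox9 fell under organic filters (-0.24). The third bile duct gene measured, Krt19, was not called. The median of the 3 was 0.14 in Organic-UVR and -0.10 in Organic + UVR. Krt7 was dim: its median log2 levels were 4.275 in Control-UVR, 4.959 in Organic-UVR and 4.735 in Organic + UVR, below the median of all transcripts (5.238). The call of Pecam1 under organic filters was lost when Organic-UVR replicate 1 was left out (adjusted p 0.128). The other calls of Pecam1, Krt7 and Sox9 held (Krt7 in Organic-UVR 0.49, adjusted p 0.0314). Of the 2 hepatocyte, 2 leukocyte, 2 macrophage, 3 stellate, 4 dividing cell and 1 erythroid markers measured, 0 were called by limma in any comparison. The part of the clock, interferon or cell type genes in the differences of the proteasome genes was not tested.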

How the data were processed

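The deposited values are log2 expression values, which the authors made from the scanned arrays by RMA (background correction, quantile normalization and summary by probeset; no version is given in the sources used here). The paper describes 6 chip batches with 1 array of each group and a removal of batch effects; whether the deposited values include that step is not given in the sources used here. Of 16383 probesets, 6568 control probesets were left out and 9815 transcripts were tested, a part of the array. This part covers the chromosomes unevenly. Chromosome 11 had 1632 and chromosome 1 had 1281 transcripts, whereas chromosome 2 had 5 and chromosome 4 had 13. A share of all transcripts is a share of this part, and a gene not measured here may lie outside it. Groups were compared with limma 3.58.1 in R 4.3.3, on all 47 arrays, with group and replicate number as terms and Benjamini-Hochberg adjustment over all transcripts. The fit was tested on simulated data with independent noise for each transcript and a shift for each replicate number. The simulation held no array of low slope and no other correlation between genes. It therefore says nothing about how those features affect the calls. The members and lists were chosen with earlier results of these data known. Named were all called members, the 2 of each family with the smallest p where a comparison had no call, and the catalytic subunits and activators. Others, such as Ube2n, Psme4 and Psmb11, were named after their values were seen. Alternatives left out the replicate number, an array, dim transcripts or the other groups, or added array weights, quantile normalization, the array slope, the mean of a gene's probesets or a stricter threshold. The number of arrays limits the precision. The labels give individual mice. The p-values measure the spread between mice of a group that is left after the replicate number term, pooled over the 8 groups. If each group had its own cage, as the paper describes, they do not measure a spread between cages.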

Additional observations from a re-analysis of the deposited data

Results flagged for a closer look

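In groups of 5 or 6 arrays, a lone array stood far from the others by Dixon's test in 17 of 224 cases over 28 items, where chance gives about 5% of groups. Of these, 9 were Organic-UVR replicate 1, the array with the lowest slope. In it the mean deviation from Control-UVR was -1.15 for the proteasome genes and -0.77 for the ubiquitin enzymes, and the log2 level was the lowest of its group for Psmd11 (7.83), Psmd12 (7.78), Psmd2 (7.54), Psme1 (9.14), Psme3 (7.25), Ube2v1 (8.33) and Usp40 (5.43). In TiO2 + UVR replicate 5 the proteasome mean (0.061), Psmb5 (9.83) and Psmc5 (9.72) were the highest of the group. In Organic + UVR replicate 4 the mean of the ubiquitin enzymes was the lowest (-0.35). The other lone arrays were ZnO-UVR replicate 6 for Psmc3ip (4.73, lowest), Control + UVR replicate 1 for Psmc5 (9.03, lowest), ZnO-UVR replicate 1 for Psme1 (10.00, highest) and ZnO-UVR replicate 4 for Ube2o (6.54, highest). Their causes were not tested.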

How the results depend on the processing

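Of 493 values of called genes under alternatives, 346 kept direction and call, 147 kept direction only and 0 reversed. Each gene called under organic filters gave 47 of these values from left-out arrays, against 12 in Organic-UVR and 13 in Organic + UVR. Some runs could change little. Under organic filters the compared groups alone are all 8 groups, which repeats the fit used here. Leaving out dim transcripts keeps the difference of each called gene. The mean of a gene's probesets changes it for genes with several probesets only. Psmd11 under organic filters was called in every alternative run. Counts of members called were 5 in Organic-UVR, 1 in Organic + UVR, 7 under organic filters and 0 elsewhere. Without the replicate block they were 1 (Psmd11), 0 and 2 (Psmd11 and Psmd3). At an adjusted p under 0.05 they were 3, 0 and 2. After quantile normalization they were 1, 0 and 1, beside 1.53%, 0.0713% and 3.07% of all transcripts called. The slope covariate gave 0, 0 and 1, beside 0.662%, 0.234% and 2.2% of all transcripts. In that run Psmd11 was called (1 member) in the TiO2 interaction, beside 0.621% of all transcripts. With dim transcripts left out 8 were called in Organic-UVR and 5 in Organic + UVR (11.7% and 7.93% of the 4908 transcripts then tested), and with the compared groups alone 0 in each. With array weights 11 were called in Organic-UVR (8.57% of all transcripts), 17 in Organic + UVR (14.9%), 2 in TiO2 + UVR (Psmd1 and Psmd11; 3.99%), 1 in Control + UVR (Usp40; 3.62%) and 1 for UVR (Psme3; 2.35%). The median of the ubiquitin enzymes in Organic-UVR came to -0.02 after quantile normalization (-0.0237) and with the slope (-0.0225), and that of the organic interaction to 0.02 with the slope (0.0223). Leaving out each array, counts ranged from 0 to 8 in Organic-UVR, 0 to 10 in Organic + UVR, 3 to 14 under organic filters, 0 to 3 in TiO2 + UVR and 0 to 1 in Control + UVR, and the ubiquitin median of the organic interaction from 0.048 to 0.28. The Organic-UVR count fell to 3 when Control-UVR mouse 1, 3 or 4 was left out, to 2 for Control-UVR mouse 2 or 6 and to 0 for Organic-UVR mouse 1, and it came to 8 when mouse 5 of either group was left out. In Organic + UVR it was 3 when mouse 5 of either group was left out. In TiO2 + UVR it was 3 without TiO2 + UVR replicate 1. Under organic filters it was 14 without Organic + UVR replicate 1 (12.6% of all transcripts) and 11 when TiO2 + UVR mouse 1 was left out. It was 3 without mouse 6 of Control-UVR, Control + UVR replicate 2, ZnO-UVR replicate 4, ZnO + UVR replicate 4, TiO2-UVR replicate 1 or 2, TiO2 + UVR replicate 4 or 6, Organic-UVR replicate 1 or Organic + UVR replicate 2. It was 4 when mouse 1 or 2 of Control-UVR was left out, or ZnO-UVR replicate 5 or 6, ZnO + UVR replicate 1 or 5, TiO2-UVR replicate 5 or Organic + UVR replicate 4. Within a comparison, the share of all transcripts called, where given for a left-out array, was higher in runs with more members called. It is not given for the other left-out arrays, the stricter threshold, or the compared groups alone in Organic-UVR and Organic + UVR. Those counts cannot be read as a result about the members alone. The causes were not tested.

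Arrays with the same replicate number had a mean correlation of deviations of 0.153 (lowest -0.508, 103 of 161 pairs over 0.1), against -0.0282 for other numbers, and 20 of 47 arrays were closest to their own number. Over all transcripts, not every such pair exceeded 0.1, which does not decide whether the numbers pair the mice. Replicates 1 to 3 had the lower proteasome mean in all 8 groups. Whether the numbers are the chip batches that the paper describes was not tested. The values without a term for the replicate number are given beside each call of a member. They are not given for the other genes called, such as Ubqln1, Sumo3 and the clock, interferon and cell type genes.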
